A study of Rattus norvegicus with 24 samples.

Results

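The transcripts described here encode glucose transporters and enzymes that take glucose or glycogen to pyruvate, lactate and glycerol 3-phosphate: Slc2a1, Slc2a4, Hk1, Hk2, Pfkm, Aldoa, Eno3, Ldha, Pygm and Gpd1. Every probe set that the array annotation assigned to these 10 symbols was taken, with control probe sets left out. Of 8740 probe sets, 16 were assigned to them. A total of 15 carried a single symbol and covered 9 genes. The remaining probe set (M54926_at) was annotated to both Ldha and Ldhal1, so Ldha had no probe set of its own, and its values are given as those of a shared probe set and are not in the counts of 15. All 16 passed the filter on low intensity described below.

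Left ventricles came from Dahl salt-sensitive rats, an inbred strain whose blood pressure rises when it is fed salt, and total RNA was read on Affymetrix rat arrays. High salt rats were fed a diet with 6% NaCl from 6 weeks of age and were sampled at 3, 6 and 15 weeks. Exercised rats were trained every day on a treadmill, also from 6 weeks of age, through 3 weeks of rising load and then at 16 m/min, 5 degrees of incline and 90 minutes a day, and were sampled at 3 and 6 weeks. Controls were sedentary rats of the same age and strain on ordinary chow, sampled at 3, 6 and 15 weeks. Each of the 8 groups had 3 columns of intensities. Whether the arrays of a group were hybridised with RNA of different animals is not stated, so p-values cover the spread between arrays, which may be technical. The starting point of the weeks in the titles is not stated either. The tissue was whole ventricle, so fewer cells of a type and less RNA per cell cannot be told apart in any value below.

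A pair of arrays stood under 2 labels: the columns numbered 2 and 3 of exercise at 3 weeks held the same 8799 values as those of control at 3 weeks. They were left out, so 20 arrays entered the comparisons, and at 3 weeks they were used only pooled with the other 2 arrays of rats without salt. The 3′ to 5′ intensity ratio of the GAPDH control probe sets, which is higher where the 5′ end of the transcript is under-represented, was 1.58, 2.48 and 3.99 in the controls at 6 weeks. It was 1.09, 1.52 and 1.58 in the controls at 15 weeks, and between 0.989 and 1.18 on the other 16 distinct arrays. At 6 weeks the ratio did not overlap between controls and treated rats. Cardiac myocyte markers were bright in every group (summed intensity of 6 markers 143473.5 to 249478.7 over all arrays), and none of the 6 passed the test in any comparison. Skeletal muscle markers were dim (summed intensity of 8 markers 582.9 to 1282.6).

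Glucose enters heart cells through the transporters GLUT1, encoded by Slc2a1 and present at the cell surface without insulin, and GLUT4, encoded by Slc2a4 and moved to the surface by insulin and contraction. Hexokinases trap it as glucose 6-phosphate, which passes through phosphofructokinase, aldolase and enolase towards pyruvate, or is stored as glycogen and released by glycogen phosphorylase. The adult heart draws most of its energy from fatty acids, and a shift towards glucose and towards fetal forms of metabolic enzymes is a known feature of the overloaded heart.

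Promoters were looked at for members that passed the test between high salt and control at 15 weeks, since they moved in opposite directions. The table of RefSeq promoter windows used here (assembly GRCr8, from 250 bases before to 50 bases after the start) matched 8 of the 10 genes, with 11 windows in all. Slc2a4 and Gpd1 were not matched. The windows of Slc2a1, which was higher at 15 weeks, and of Hk2, Pfkm and Eno3, each with a probe set that was lower, are shown 5′ to 3′. Capitals mark ACGTG, the core of the hypoxia response element, and GGGCGG, the GC box, on either strand.
Slc2a1: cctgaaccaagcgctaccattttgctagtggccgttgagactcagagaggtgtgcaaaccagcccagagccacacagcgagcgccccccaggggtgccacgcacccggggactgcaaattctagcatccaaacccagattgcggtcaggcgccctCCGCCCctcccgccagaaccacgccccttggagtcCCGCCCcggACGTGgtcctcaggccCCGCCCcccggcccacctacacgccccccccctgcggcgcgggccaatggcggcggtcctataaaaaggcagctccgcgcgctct
Hk2: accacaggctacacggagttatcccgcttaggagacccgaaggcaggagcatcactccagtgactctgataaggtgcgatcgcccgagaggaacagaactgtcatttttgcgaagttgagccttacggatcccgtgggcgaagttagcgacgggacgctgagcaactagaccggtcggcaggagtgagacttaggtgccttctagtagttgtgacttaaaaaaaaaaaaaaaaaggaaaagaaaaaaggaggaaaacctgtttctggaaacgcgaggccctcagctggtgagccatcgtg
Pfkm: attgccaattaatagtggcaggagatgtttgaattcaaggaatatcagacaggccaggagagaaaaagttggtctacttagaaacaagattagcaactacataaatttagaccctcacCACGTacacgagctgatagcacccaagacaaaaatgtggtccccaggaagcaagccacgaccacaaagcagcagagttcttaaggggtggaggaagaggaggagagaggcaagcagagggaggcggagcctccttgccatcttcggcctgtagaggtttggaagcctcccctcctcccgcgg
Eno3: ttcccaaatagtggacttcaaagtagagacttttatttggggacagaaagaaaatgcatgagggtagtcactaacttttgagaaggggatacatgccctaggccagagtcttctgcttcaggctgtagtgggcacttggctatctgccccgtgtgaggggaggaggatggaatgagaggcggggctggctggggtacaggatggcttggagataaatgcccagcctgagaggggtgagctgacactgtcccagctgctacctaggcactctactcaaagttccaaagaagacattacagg
The Slc2a1 window (chr5:138002272-138002571, plus strand) held 1 ACGTG and 3 GGGCGG matches and 68.33% G and C. The Hk2 window (chr4:116841226-116841525, minus strand) and the Eno3 window (chr10:55868936-55869235, plus strand) held neither motif, at 51.0% and 51.33% G and C. The Pfkm window (chr7:131113849-131114148, plus strand) held 1 ACGTG, at 50.33% G and C. Over all 33469 windows the median was 51.67% G and C. ACGTG was found in 6 of the 11 member windows and in 19.25% of all windows. GGGCGG was found in 4 of the 11 and in 33.06% of all. The outer letters of the MEF2 site, bound by a muscle transcription factor, were found in 2 of the 11, both of Aldoa, and in 3.84% of all. The marked motifs did not overlap in the printed windows, and a match is only a run of letters.

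At 15 weeks the hearts of rats on high salt had more Slc2a1 and Gpd1 signal than control hearts and less signal from Slc2a4, Hk2, Pfkm and Eno3 probe sets. Calls have an adjusted p under 0.05, from limma on log2(intensity + 40) over 6555 probe sets, and all changes below are log2 fold changes on that scale with their standard error (SE). Of the 15 member probe sets, 7 were called, 3 higher and 4 lower, where 7.20% of all tested probe sets were called. The groups did not overlap for 10 of the 15, 6 higher and 4 lower in high salt, against 20.9% of all tested probe sets. The median change of the 15 was 0.32, and that of all tested probe sets was -0.04.

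Among the transporters, the 2 genes moved in opposite directions. The brighter Slc2a1 probe set (S68135_s_at) read 1168.1, 1039.3 and 1468.5 in high salt hearts at 15 weeks, against 744.8, 543.8 and 855.6 in control hearts. All 3 high salt arrays lay above all 3 controls, and the change was 0.75 ± 0.22 (SE, adjusted p = 0.0388). The dimmer Slc2a1 probe set (M13979_at) read 142.3, 162.8 and 294.6 in high salt hearts, against 74.9, 22.3 and 42.6 in control hearts. It rose by 1.46 ± 0.33 (SE, adjusted p = 0.0098), and the control values lay near the pseudocount, so this fold is understated.

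The brighter Slc2a4 probe set (D28561_s_at) read 1592.4, 1279.8 and 985.8 in high salt hearts and 2422.6, 2872.6 and 2017.9 in control hearts. Every high salt array was below every control, and it differed by -0.91 ± 0.21 (SE, adjusted p = 0.012). The dimmer Slc2a4 probe set (rc_AA799760_s_at) overlapped, with 378.5, 713.1 and 652.4 in high salt hearts and 497.4, 690.8 and 656.1 in control hearts, a change of -0.11. The 2 probe sets of this gene therefore gave different sizes, and only the brighter was called.

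**Figure D1:**
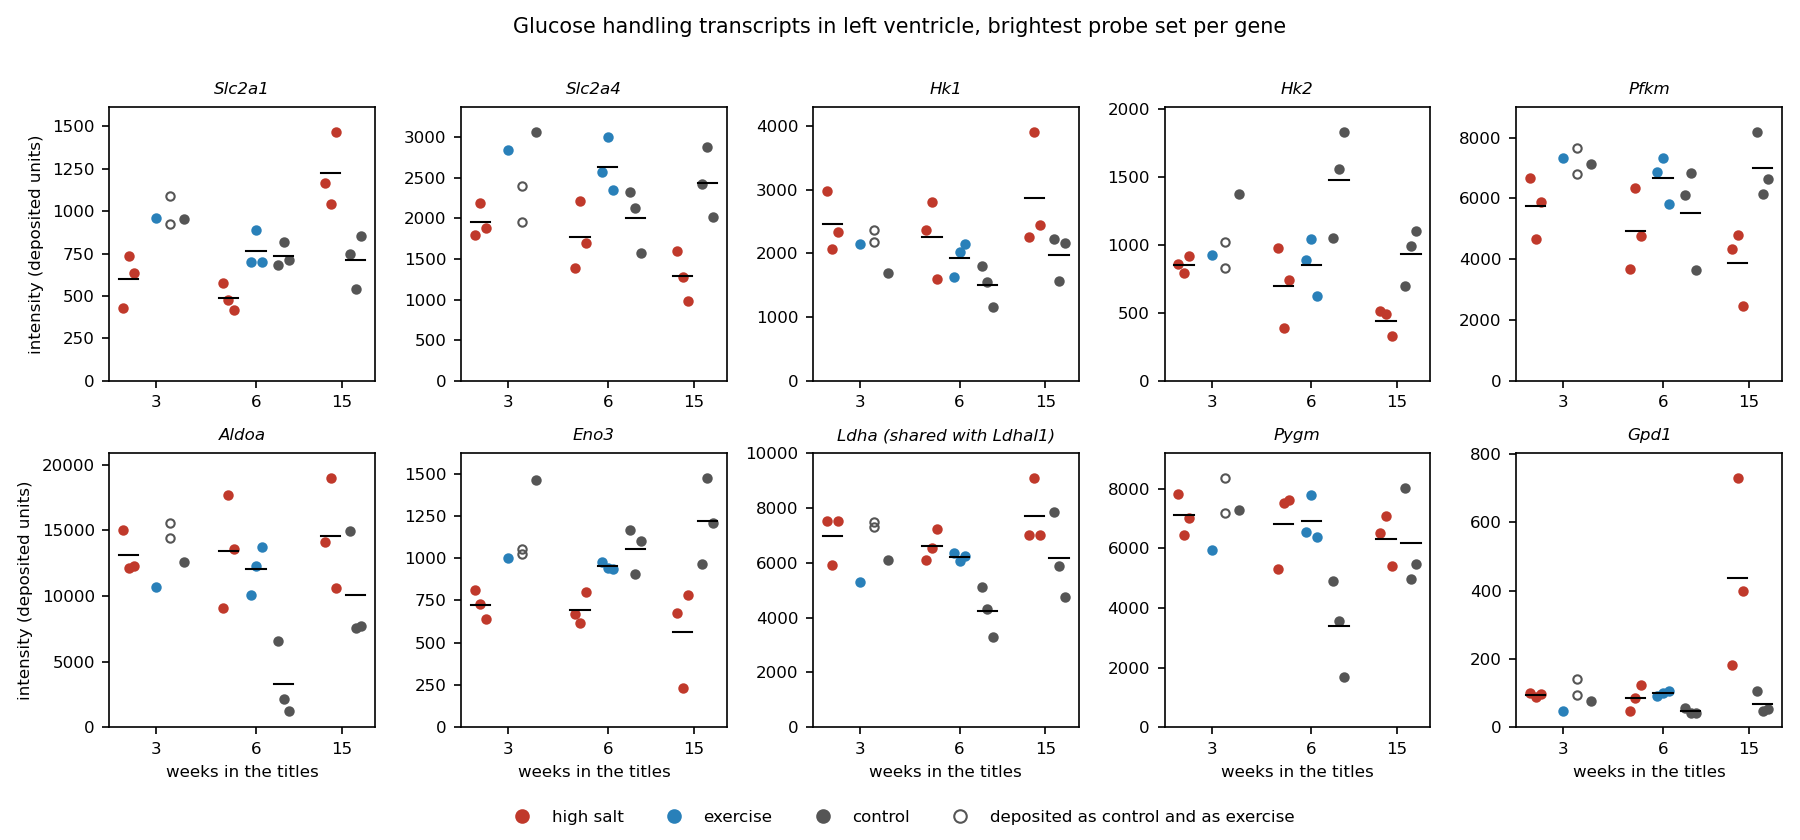
Deposited intensity (linear axis from 0) of the brightest probe set of each gene by week in the titles; points are arrays, bars are means of groups with more than 1 array, and open points are the 2 arrays deposited as control and as exercise. At 15 weeks the high salt points lie above the controls for Slc2a1 and Gpd1 and below them for Slc2a4, Hk2, Pfkm and Eno3; at 6 weeks the controls are low for Aldoa and Pygm.

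Of the hexokinases, Hk1 is the form of most adult tissues and Hk2 the insulin-responsive form of muscle. The brighter Hk2 probe set (D26393exon_s_at) read 509.8, 488.5 and 331.0 in high salt hearts at 15 weeks and 699.7, 990.8 and 1104.0 in control hearts. It fell by 1.01 on the log2 scale (SE 0.29, adjusted p = 0.0374). The dimmer Hk2 probe set (M68971_at) lay the other way, at 620.1, 726.1 and 392.1 in high salt hearts and 366.4, 378.6 and 276.2 in control hearts. Its change of 0.67 ± 0.23 (SE) did not pass (adjusted p = 0.089), so the array gives no single direction for Hk2. With the GAPDH covariate the brighter Hk2 probe set differed by -0.78 and was no longer called (adjusted p = 0.0798). Hk1 was above all controls on every high salt array for both of its probe sets, with changes of 0.50 ± 0.24 and 0.45 ± 0.25 (SE), and neither passed (adjusted p = 0.263 and 0.336).

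Along glycolysis, the brighter Pfkm probe set and the Eno3 probe set were called lower, and Aldoa was not called. Pfkm encodes the muscle phosphofructokinase, the committed step of the pathway. Its brighter probe set (U25651_at) read 4349.2, 4798.3 and 2468.4 in high salt hearts and 8199.2, 6149.9 and 6626.5 in control hearts, a change of -0.89 ± 0.26 (SE, adjusted p = 0.0433). Its dimmer probe set (D21869_s_at) read 613.0, 710.6 and 539.8 in high salt hearts and 747.6, 359.1 and 427.7 in control hearts, which overlap, with a change of 0.32. No single direction is given for Pfkm. Eno3, the muscle enolase, read 672.9, 233.0 and 780.5 in high salt hearts and 966.5, 1475.5 and 1209.8 in control hearts. It differed by -1.19 ± 0.29 (SE, adjusted p = 0.0143), all 3 high salt arrays being below the controls. High salt array 2 was the lowest, and without it the change was -0.70 (adjusted p = 0.0414). Aldoa, the muscle aldolase, read 14140.9, 19008.4 and 10644.1 in high salt hearts and 14978.6, 7537.5 and 7706.2 in control hearts, and its change of 0.57 ± 0.41 (SE) was within the spread between arrays.

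Lactate and glycogen members showed no call at 15 weeks. The probe set shared by Ldha, the lactate dehydrogenase subunit that favours lactate formation, and Ldhal1 read 6999.3, 9101.4 and 6998.5 in high salt hearts and 7861.4, 5881.1 and 4751.9 in control hearts, a change of 0.34. Pygm encodes the muscle glycogen phosphorylase. Its probe sets L10669_g_at and L10669_at differed by 0.06 and 0.17, and both overlapped between the groups.

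Gpd1 had the biggest change of the 15 member probe sets at 15 weeks. It encodes the cytosolic glycerol 3-phosphate dehydrogenase, which links glycolysis to glycerolipid synthesis and passes electrons to mitochondria. Its probe set (AB002558_at) read 180.7, 730.5 and 398.9 in high salt hearts and 106.9, 47.5 and 51.9 in control hearts, a change of 1.99 ± 0.34 (SE, adjusted p = 0.00104). The high salt arrays spread widely and the lowest of them was still above the highest control.

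**Figure D2:**
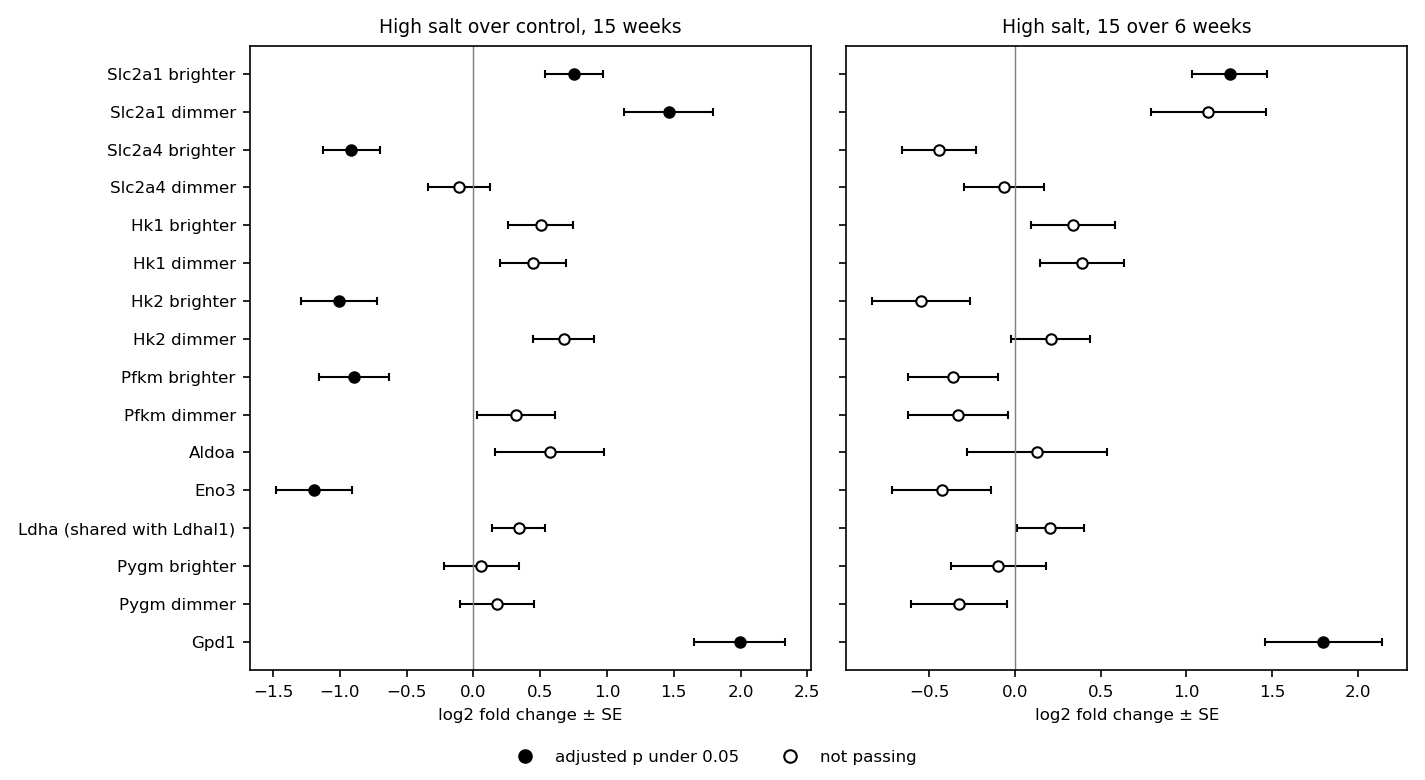
Log2 fold change with its standard error for the 16 member probe sets (rows), high salt over control at 15 weeks on the left and high salt at 15 over 6 weeks on the right; filled points have an adjusted p under 0.05. Slc2a1 and Gpd1 are positive on both sides, and the brighter probe sets of Slc2a4, Hk2 and Pfkm and that of Eno3 are called lower on the left only.

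Which 15-week members were called depended on single arrays. Without control array 2, only Gpd1 of the 15 was called (1.86, adjusted p = 0.00958). Without high salt array 3 the calls were 3 of the 15: Gpd1, Eno3 and the dimmer Hk2 probe set, which was higher (0.91, adjusted p = 0.0271). Without high salt array 1 they were 4 of the 15. In each of the 6 fits that left out 1 array, Gpd1 was called. The brighter probe set of Slc2a4 and the dimmer one of Slc2a1 were called in 4 of the 6, Eno3 in 5, the brighter Slc2a1 probe set in 2, and the brighter probe sets of Hk2 and Pfkm in 1 each. The dimmer Hk2 probe set, of opposite direction, was also called in 1. No sign changed among these 7 probe sets. The count of all tested probe sets called also moved between the 6 fits, and its range is given in the last section.

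Markers of other cells also differed at 15 weeks. Of the red blood cell markers, 2 of the 3 tested were higher, Alas2 (2.16) and Slc4a1 (1.94). The summed intensity of all 3, which include the uncalled Hbb, was 31915.8 to 39001.7 in high salt hearts and 18166.3 to 24498.5 in control hearts. The part of red blood cells in the Slc2a1 result was not tested. Fibroblast collagens were lower, with 3 of 5 markers called and a summed intensity of 10910.8 to 20825.8 in high salt hearts, against 25372.4 to 34162.8 in control hearts. The leukocyte gene Cd74 was lower (-0.93), as 1 of 3 markers. Their part in the members that were lower was not tested. Adipocytes are rich in Gpd1. None of their 5 markers was called, and the summed intensity was 3320.2 to 4893.2 in high salt hearts and 3581.0 to 4563.8 in control hearts. The part of adipocytes in the Gpd1 result was not tested. With the GAPDH ratio as a covariate, Slc2a1 (0.78 and 1.48), Slc2a4 (-1.02), Pfkm (-1.07), Eno3 (-1.19) and Gpd1 (1.89) were still called.

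Within the high salt hearts, which also differed in age between the weeks, Slc2a1 and Gpd1 were higher at 15 than at 6 weeks. Of the 15 probe sets these were the 2 called, both higher, against 3.19% of all. The brighter Slc2a1 probe set read 430.8, 737.1 and 634.9 at 3 weeks, 578.5, 473.5 and 417.7 at 6 weeks, and 1168.1, 1039.3 and 1468.5 at 15 weeks. At 15 weeks it was above every earlier high salt array, and the change over 6 weeks was 1.25 ± 0.22 (SE, adjusted p = 0.00159). Gpd1 read 98.7, 87.1 and 98.3 at 3 weeks, 45.7, 85.6 and 124.8 at 6 weeks, and 180.7, 730.5 and 398.9 at 15 weeks. It was higher at 15 than at 6 weeks by 1.80 ± 0.34 (SE, adjusted p = 0.00358). The dimmer Slc2a1 probe set did not overlap either, with 94.5, 85.2 and 30.2 at 6 weeks, and its 1.13 ± 0.33 (SE) did not pass (adjusted p = 0.0785). Markers of other cells moved in the same comparison: all 3 red blood cell markers were called higher at 15 weeks, 3 of 5 fibroblast markers lower (median -1.21) and 1 of 3 leukocyte markers lower, and their part was not tested. The members called lower against control at 15 weeks were not called between the weeks. Slc2a4 differed by -0.44, Hk2 by -0.55, Pfkm by -0.36 and Eno3 by -0.43 on those probe sets. Control means at 6 and 15 weeks were 738.0 and 714.7 for the brighter Slc2a1 probe set and 46.9 and 68.8 for Gpd1. The high salt effect on Gpd1 was not called different between 15 and 6 weeks in the main fit, and was called in 1 of the 12 fits without 1 array.

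Between 6 and 3 weeks of high salt no member was called, where 0.0763% of all were. All 15 changes lay between -0.57 and -0.01, and every pair of groups overlapped. By an unadjusted p under 0.05, 303 of the 6555 probe sets differed in this comparison.

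At 3 weeks, high salt hearts were compared with the 4 distinct arrays of rats without salt, which pool control and exercise. No member was called, where 0.153% of all were, and 528 probe sets had an unadjusted p under 0.05. The groups did not overlap for 3 of the 15, all lower in high salt, against 14.8% of all. The brighter Slc2a1 probe set read 430.8, 737.1 and 634.9 in high salt hearts and 956.2, 1089.4, 923.5 and 958.0 in hearts without salt, a change of -0.70 ± 0.19 (SE, adjusted p = 0.192). Eno3 read 808.8, 726.4 and 640.4 in high salt hearts and 1464.9, 1056.5, 1021.8 and 999.3 in hearts without salt (-0.61, adjusted p = 0.545). The brighter Pfkm probe set was the third, at -0.35. The brighter Slc2a1 value lay opposite to its 15-week direction and did not pass. The dimmer Slc2a1 probe set overlapped and lay the other way, with 140.3, 140.4 and 78.5 in high salt hearts and 133.8, 78.0, 106.5 and 35.1 in hearts without salt (0.36 ± 0.32 SE, adjusted p = 0.85). When all 24 columns were used as deposited, which counts each doubled array in both groups, the brighter probe set was called (-0.71, adjusted p = 0.0466).

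At 6 weeks, Aldoa, the dimmer Pfkm probe set and both Pygm probe sets were called higher than control in high salt and in exercise, and the controls were the arrays with the high GAPDH ratios. The 2 comparisons share these 3 control arrays. High salt against control called 5 of the 15 members, 4 higher and 1 lower, against 14.4% of all. Exercise against control also called 5, 4 higher and 1 lower, against 7.83% of all. The groups did not overlap for 8 of the 15 in high salt, 4 in each direction (30.7% of all), and for 9 in exercise, 7 higher and 2 lower (28.5% of all). The median change of all tested probe sets was itself below 0, at -0.15 for high salt and -0.12 for exercise.

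Aldoa read 9116.1, 17700.3 and 13581.8 in high salt hearts and 10062.5, 12269.7 and 13724.9 in exercised hearts, against 6553.6, 2132.6 and 1262.5 in control hearts. It differed by 2.30 ± 0.41 in high salt (SE, adjusted p = 0.00125) and by 2.17 ± 0.41 in exercise (SE, adjusted p = 0.00318). The control values followed the GAPDH ratio in reverse order, the array with 3.99 being the dimmest.

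The dimmer Pfkm probe set read 569.8, 1256.9 and 675.0 in high salt hearts and 750.5, 788.5 and 992.8 in exercised hearts, against 338.6, 212.6 and 150.6 in control hearts. Its changes were 1.65 ± 0.29 in high salt (SE, adjusted p = 0.00122) and 1.74 ± 0.29 in exercise (SE, adjusted p = 0.00189). The brighter Pfkm probe set, the one that was lower at 15 weeks, overlapped in both comparisons.

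Pygm was higher on both probe sets. The brighter one read 5304.5, 7529.9 and 7612.1 in high salt hearts and 6556.1, 7788.2 and 6385.5 in exercised hearts, against 4922.0, 3548.7 and 1682.4 in control hearts. It differed by 1.11 ± 0.28 in high salt (SE, adjusted p = 0.0113) and 1.15 ± 0.28 in exercise (SE, adjusted p = 0.0155). The other differed by 1.37 and 1.30. The shared Ldha and Ldhal1 probe set read 6099.6, 6555.8 and 7236.0 in high salt hearts and 6356.2, 6074.7 and 6249.3 in exercised hearts, against 5110.4, 4301.2 and 3296.0 in control hearts. Its change was called in high salt (0.66 ± 0.20, adjusted p = 0.0285) and not in exercise (0.57 ± 0.20, adjusted p = 0.0747).

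The probe sets called lower were the brighter one of Hk2 in high salt and the dimmer one of Slc2a4 in exercise, and the other probe set of each gene lay the other way. The brighter Hk2 probe set read 975.9, 384.9 and 741.0 in high salt hearts and 885.9, 1044.3 and 620.6 in exercised hearts, against 1049.5, 1555.3 and 1831.5 in control hearts. It differed by -1.09 ± 0.29 in high salt (SE, adjusted p = 0.0149) and by -0.76 ± 0.29 in exercise (SE, adjusted p = 0.104). The dimmer Slc2a4 probe set read 657.9, 489.5 and 637.3 in high salt hearts and 411.3, 595.9 and 500.2 in exercised hearts, against 751.0, 864.7 and 1075.2 in control hearts. It differed by -0.56 ± 0.23 in high salt (SE, adjusted p = 0.113) and by -0.79 ± 0.23 in exercise (SE, adjusted p = 0.0421). The Slc2a4 call held in 1 of the 6 fits without 1 array. The dimmer Hk2 probe set read 332.0, 609.6 and 545.7 in high salt hearts and 339.5, 272.4 and 294.2 in control hearts (0.61 ± 0.23 SE, adjusted p = 0.0798). The brighter Slc2a4 probe set read 2563.8, 2994.8 and 2347.9 in exercised hearts and 2318.9, 2123.8 and 1569.3 in control hearts, without overlap (0.40 ± 0.21 SE, adjusted p = 0.266). No single direction is given for Hk2 in high salt or for Slc2a4 in exercise. The 2 called probe sets were brightest on the control array with the highest GAPDH ratio.

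No member was called in either 6-week comparison once the GAPDH ratio was a covariate, or when the controls of 3 and 15 weeks replaced those of 6 weeks. The replacement controls were 1 array of 3 weeks and 3 arrays of 15 weeks, each array with equal weight. Those of 15 weeks had ratios of 1.09, 1.52 and 1.58. In high salt, Aldoa then differed by 0.23 and 0.34, the dimmer Pfkm probe set by 0.53 and 0.54, and Hk2 by -0.18 and -0.60. In exercise, Aldoa differed by -0.03 and 0.22, and the dimmer Slc2a4 probe set by -0.15 and -0.24. Ordered by the ratio, the 3 controls of 6 weeks had steadily lower values for 6 of the 15 probe sets and steadily higher values for 2. The controls of 15 weeks had steadily lower values for none and steadily higher values for 2. Both Pygm probe sets are among the 6. Such orders were not counted over all tested probe sets, and 3 arrays can easily fall in order by chance. The counts are therefore only a description. At 6 weeks the ratio and the control label cannot be told apart. Markers of other cells moved in these comparisons as well. Smooth muscle had 3 of 4 markers lower in both, with a summed intensity of 2803.4 to 4408.9 in high salt hearts and 2820.9 to 4199.9 in exercised hearts, against 4548.8 to 11035.0 in control hearts. The adipocyte gene Fabp4 was lower in both (-1.53 and -1.24), as 1 of 5 markers. The endothelial gene Kdr (-0.99 and -1.51) was lower as 1 of 4, and the skeletal muscle gene Tnnt3 (-0.82 and -0.88) as 1 of 5. Of 3 leukocyte markers, Cd74 was higher in both (0.85 and 0.79) and Ptprc lower in high salt (-0.85). The part of these cells was not tested.

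**Figure D3:**
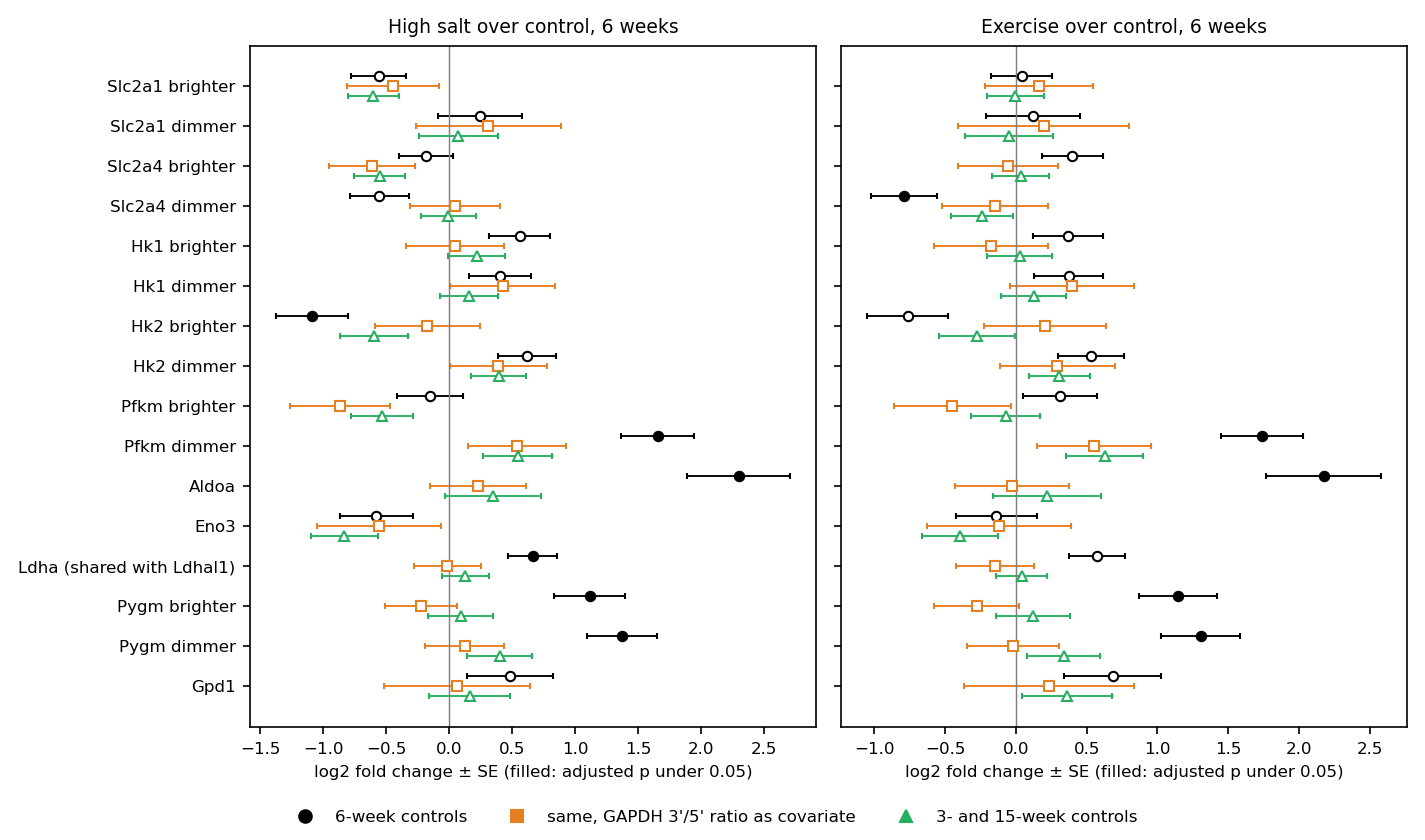
Log2 fold change with its standard error for the 16 member probe sets (rows) at 6 weeks, high salt over control on the left and exercise over control on the right, against the 6-week controls, against them with the GAPDH ratio as a covariate, and against the 3- and 15-week controls; filled symbols have an adjusted p under 0.05. No square or triangle is filled, and Aldoa, at 2.30 and 2.17 against the 6-week controls, lies between -0.03 and 0.34 in the others.

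**Figure D4:**
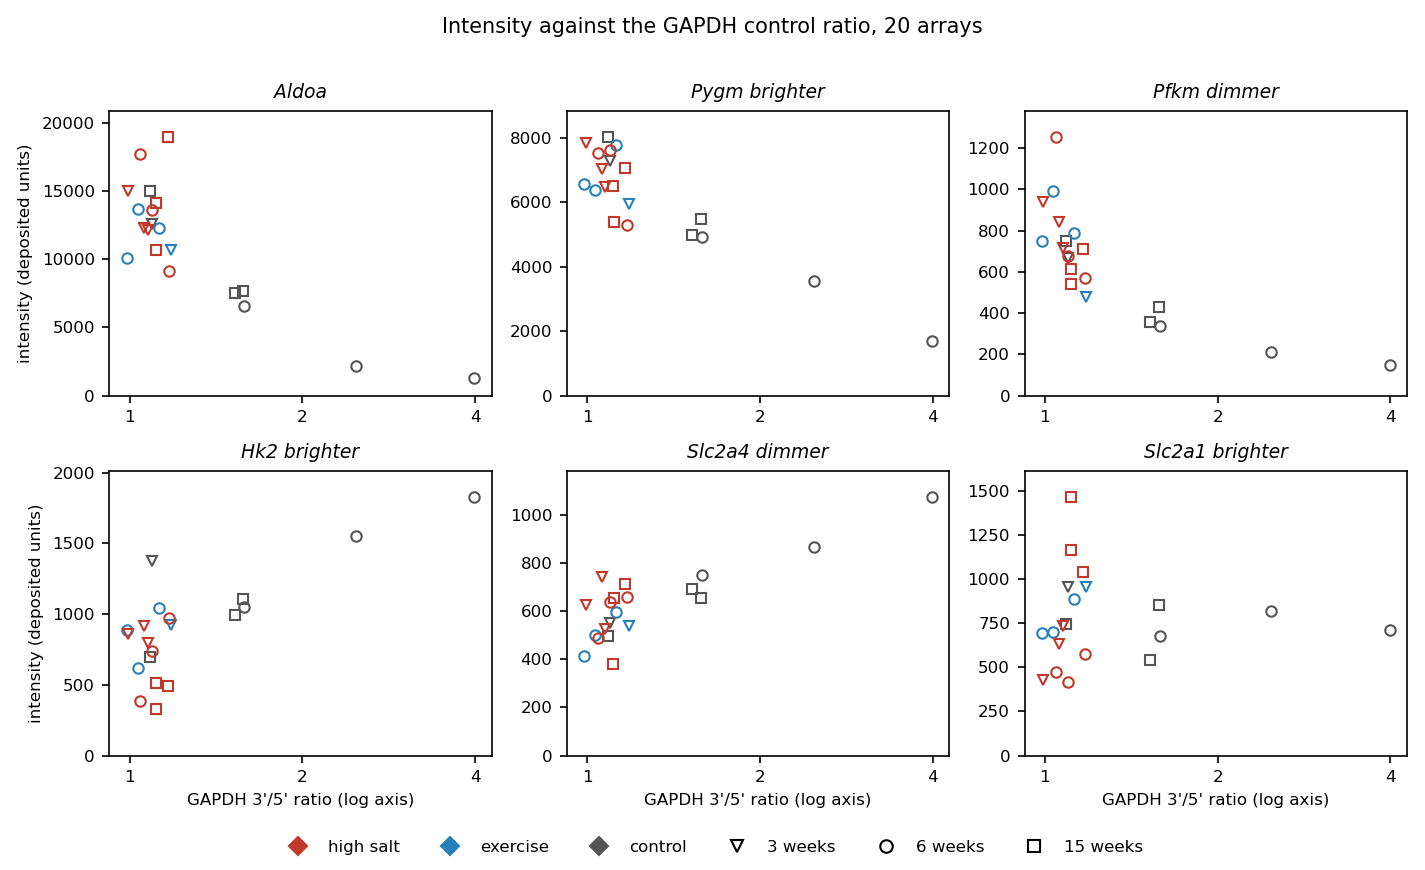
Intensity (linear axis) against the GAPDH 3′ to 5′ ratio (log axis) on the 20 arrays of the comparisons for 6 member probe sets; colours are groups and symbols are weeks. The controls with ratios of 1.52 to 3.99 are the dimmest arrays for Aldoa and the dimmer Pfkm probe set. The control with 3.99 is the brightest for the brighter Hk2 and dimmer Slc2a4 probe sets and the dimmest for Pygm, and for Slc2a1 it lies within the range of the others.

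High salt and exercise hearts at 6 weeks had GAPDH ratios of 1.04 to 1.17 and 0.989 to 1.12. No member was called between them, where 0.0153% of all were and 462 probe sets had an unadjusted p under 0.05. The groups did not overlap for 3 of the 15, all lower in high salt, against 13.4% of all. The brighter Slc2a1 probe set read 578.5, 473.5 and 417.7 in high salt hearts and 697.5, 887.3 and 703.1 in exercised hearts (-0.60 ± 0.22 SE, adjusted p = 0.544). The brighter Slc2a4 probe set read 1382.0, 2207.7 and 1698.5 in high salt hearts and 2563.8, 2994.8 and 2347.9 in exercised hearts (-0.59 ± 0.21 SE, adjusted p = 0.544). Eno3 read 670.5, 614.1 and 797.0 in high salt hearts and 976.1, 943.5 and 934.3 in exercised hearts (-0.44 ± 0.29 SE, adjusted p = 0.834). The dimmer Slc2a1 probe set overlapped, at 94.5, 85.2 and 30.2 in high salt hearts and 62.4, 36.0 and 79.1 in exercised hearts (0.12 ± 0.33 SE).

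The brighter Slc2a1 probe set was also the one member probe set whose high salt effect was called different between weeks. The effect on it was 0.75 at 15 weeks and -0.56 at 6 weeks, a difference of 1.31 ± 0.31 (SE, adjusted p = 0.0288). It was 1 of the 15, against 1.60% of all. On the dimmer Slc2a1 probe set the effect was 1.46 at 15 weeks and 0.24 at 6 weeks, a difference of 1.22 ± 0.47 (SE) that did not pass (adjusted p = 0.211). With the ratio as a covariate the difference was 1.23 and did not pass (adjusted p = 0.173). It was called in 5 of the 12 fits without 1 array. The red blood cell genes Alas2 (2.16) and Slc4a1 (2.13) were called in the same comparison. So were 1 of 5 fibroblast markers and 1 of 3 leukocyte markers, both negative. The part of these cells was not tested. Without control array 1 of 6 weeks, 5 members were called, the others being Aldoa, the dimmer Pfkm probe set and both Pygm probe sets, all negative.

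Other genes of glucose handling were counted over a list of 56, of which 38 were on the array and 32 were tested. At 15 weeks 5 were higher and 2 lower in high salt, 21.9% of the 32 where 7.20% of all probe sets were called, with a median of 0.08. The clearest was Slc16a1, the monocarboxylate transporter that carries lactate and pyruvate across the membrane. It read 3287.6, 2962.0 and 4101.9 in high salt hearts and 1480.8, 1120.2 and 1135.5 in control hearts, a change of 1.44 ± 0.29 (SE, adjusted p = 0.00387). It was called in all 6 fits without 1 array and with the ratio as a covariate (1.14).

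Glycogen genes were higher in 2 cases: Gyg1, the glycogenin that primes glycogen chains (0.89, adjusted p = 0.01), and Phka1, a regulatory subunit of phosphorylase kinase in muscle (1.41, adjusted p = 0.0137). Pgam2, the muscle phosphoglycerate mutase that acts just before enolase, was lower. It read 1282.2, 1461.5 and 1119.4 in high salt hearts and 1876.1, 2267.8 and 2382.4 in control hearts, a change of -0.74 ± 0.18 (SE, adjusted p = 0.0138). The other 3 called were Pfkl (0.71) and Pfkp (0.93), the liver and platelet phosphofructokinases, and Pygb (-0.73), the brain glycogen phosphorylase. They complete the 7 and were named after their values were seen. Gyg1, Phka1 and Pgam2 were each called in 3 of the 6 fits without 1 array, Pygb in 3, Pfkp in 2 and Pfkl in 1. With the GAPDH covariate Pfkp was not called (0.87, adjusted p = 0.0767), and another Pygb probe set had the opposite sign. Pfkl read 816.1, 912.3 and 877.0 in high salt hearts and 534.0, 668.0 and 377.2 in control hearts. At 15 weeks the 2 non-muscle phosphofructokinases were called higher while the brighter probe set of the muscle form was called lower. That lower call held in 1 of the 6 fits without 1 array. The dimmer probe set of the muscle form lay the other way, overlapped between the groups and was not called.

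At 6 weeks the same list had 1 gene higher and 3 lower in high salt, 12.5% of the 32 where 14.4% of all probe sets were called. It had 1 higher and 4 lower in exercise, 15.6% where 7.83% of all were called. Slc16a1 was the higher gene in both, by 1.89 (adjusted p = 0.000529) in high salt and 1.29 (adjusted p = 0.00935) in exercise. It read 1682.6, 3233.8 and 3713.2 in high salt hearts and 1769.5, 1804.6 and 1812.2 in exercised hearts, against 1193.8, 681.8 and 430.6 in control hearts. The lower genes were Tkt, the transketolase of the pentose phosphate pathway (-1.07 in high salt and -1.02 in exercise), Gsk3b, a kinase that restrains glycogen synthase (-1.06 and -0.92), and Pfkfb2, the heart enzyme that makes the activator of phosphofructokinase (-1.31 and -1.01). Pgam2 was lower in exercise (-0.62). Pfkfb2 had the largest p of the 5 called in exercise and was named there after its value was seen. With the ratio as a covariate none of these was called, and Slc16a1 differed by 0.66 and -0.01. Between 15 and 6 weeks of high salt, Pfkl was higher (0.78) and Pgam2 lower (-0.67), and each call held in 1 of the 6 fits without 1 array. No gene of the list was called in the other 4 comparisons.

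The closest non-member profiles over the 20 arrays, by Pearson correlation of log2 intensities and given as a description, were Eef1a2 (0.98) and Pebp1 (0.97) for Aldoa and Acat1 (0.96) and Pebp1 (0.95) for Pygm. For Gpd1 they were Slc3a2 and Slc41a3 (both 0.87), and for Slc2a1 Gstm1 (0.84) and Cdo1 (0.83). All these pairs share arrays, and the Aldoa and Pygm profiles include the low controls of 6 weeks.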

How the data were processed

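Each probe set had 1 deposited intensity per array on a linear scale. How the authors summarised, background-corrected and scaled these intensities is not given in the sources used here. Column means after trimming 2% were all near 501, so no rescaling was done. Group and replicate number come from the sample titles. Values were transformed as log2(intensity + 40), the pseudocount being near the 25th percentile of all values. Probe sets with a mean under the 25th percentile were not tested, leaving 6555 of 8740. One mean per group was fitted to 20 arrays (12 residual degrees of freedom) with limma 3.58.1 in R 4.3.3, with empirical Bayes moderation and Benjamini-Hochberg adjustment. The 3-week comparison used 22 arrays. Detection calls were not used, and precision is limited by the number of arrays. The code was tested on simulated data.

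Gene names come from the platform annotation. Every member probe set is described; of other glucose genes up to 4 called genes with the smallest p per comparison are named, each by its brightest tested probe set, and 4 further genes (Pfkl, Pfkp, Pygb, and Pfkfb2 in exercise) were named after their values were seen, to complete a count. Members, lists and alternatives were chosen with earlier results of these data known. The alternatives were the use of doubled arrays, pseudocount, filter, quantile scaling, GAPDH ratio, replicate number, arrays in the fit, other controls and leaving out each array. Replicate numbers were not treated as pairs in the main fits.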

Additional observations from a re-analysis of the deposited data

Results flagged for a closer look

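Among the 4 distinct arrays without salt at 3 weeks, Eno3 read 1464.9 on control array 1 and 999.3 to 1056.5 on the others. On the log2(intensity + 40) scale the gap to its neighbour was 0.855 of the whole range, above Dixon's limit for 4 arrays, which chance exceeds in about 1 of 20 groups. All 16 member probe sets were checked in this way, so a flag by chance among them would not be unusual. The 4 arrays also pool control and exercise.

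The high salt effect on the brighter Slc2a1 probe set differed between weeks, 0.75 at 15 weeks against -0.56 at 6 weeks. The difference was 1.31 (SE 0.31, limma adjusted p = 0.0288). Over the alternatives its adjusted p ran between 0.00851 and 0.173.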

How the results depend on the processing

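Counts are of member probe sets called out of 15, and of all tested probe sets. At 15 weeks the 7 members became 4 (276 of all, from 472) when only the compared arrays were fitted, and 1 to 6 (220 to 547) when 1 array was left out. In high salt at 6 weeks the 5 members became 0 with the GAPDH ratio as a covariate (15 of all, from 942), 0 with controls of 3 and 15 weeks (22), 3 with only the compared arrays (404), and 3 to 6 (454 to 1232) without 1 array. In exercise the 5 became 0 with the covariate (0 of all, from 513), 0 with the other controls (3), 3 with only the compared arrays (258, of which 184 higher and 74 lower against 293 and 220), and 3 to 6 (210 to 860) without 1 array. All 24 columns as deposited gave 776 probe sets there, and 1 member at 3 weeks (35 of all, from 10; 100 with only the compared arrays and 6 without the filter). The 2 members called between 15 and 6 weeks of high salt became 1 (113 of all, from 209) with only the compared arrays. The 1 member of the difference between weeks became 0 with the covariate (34 of all, from 105), 0 with only the compared arrays (37), and 0 to 5 (55 to 304) without 1 array; all 24 columns gave 189. With the covariate, signs turned for Aldoa in exercise (-0.0275), the shared Ldha probe set in high salt (-0.0185), the dimmer Pygm probe set in exercise (-0.0207) and the brighter one in high salt (-0.23) and exercise (-0.28). Fewer arrays in the fit lower the power by construction; other causes were not tested. Quantile scaling moved the median of all probe sets in high salt at 6 weeks by over 0.1, to -0.05 from -0.15, and called 6 members. The count of all probe sets called with quantile scaling is not given here.

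The fit with the replicate number as a block called 5 of the 15 members at 15 weeks (2 higher, 3 lower), 5 in high salt and 5 in exercise at 6 weeks. The counts of all probe sets called in that fit are not given here, so these member counts have no share to be read against. Whether the numbers pair the samples is not stated. Of 45 same-number pairs 8 correlated above 0.1 (median -0.03, range -0.269 to 0.241). These correlations, taken around means of 3 arrays, cannot settle it. High salt against exercise called 0 to 7 probe sets of all over the alternatives, and high salt at 6 against 3 weeks 2 to 10, with 0 members in each. Arrays with 3 per group limit what could be called.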
